A study of Mus musculus with 6 samples.

Results

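The histone genes of the mouse Hist1, Hist2, Hist3 and Hist4 clusters were followed in splenic B cells of p80HT mice and of their wild-type (WT) littermates. A probeset was taken when at least 1 of its gene symbols had the older name form Hist1h to Hist4h, and 58 of the 28853 probesets of the array were found in this way. Of these, 31 carried 1 histone symbol and no other, and 27 carried several. Together they covered 69 of the 70 cluster genes in the RefSeq table. The older symbols are used throughout, with the current symbol given at first mention for the genes described most fully.

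B cells were selected from spleen with an antibody to B220 and magnetic particles. There were 3 p80HT mice, all positive for serum M-protein (a monoclonal immunoglobulin), and 3 WT littermates, all 1 year old and on a C57BL/6J x SJL/J background. p80HT is a truncated human NF-κB2 protein. Its transgene uses the H-2Kb promoter with an enhancer of the immunoglobulin μ gene and is active in both B and T cells, so that it is not limited to the cells profiled. Each mouse gave 1 Affymetrix Mouse Gene 1.0 ST array, and the values are log2 signals.

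Histones package DNA. An octamer of the core histones H2A, H2B, H3 and H4 holds each turn of DNA in the nucleosome, and the linker histone H1 binds where the DNA enters and leaves. Most cluster genes are replication-dependent: they are transcribed as cells copy their DNA, and their short mRNAs end in a stem-loop in place of a poly(A) tail. A few, Hist1h1c and Hist1h2bc among them, can also give polyadenylated transcripts in cells that do not divide, and Hist1h1t, Hist1h2aa and Hist1h2ba are known from testis.

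The array of p80HT mouse 3 stood apart. Its Pearson correlation with each other array over all probesets was 0.934 to 0.943, whereas the other arrays correlated with each other at 0.983 to 0.996. The 7 measured B cell markers of 8 listed (Cd79a, Ms4a1 and others) were lowest on this array in all 7 cases, with a median log2 signal of 12.32, 12.24 and 11.53 in p80HT mice 1, 2 and 3, against 12.32, 12.51 and 12.45 in WT mice. On the log2 scale of the summed signal, T cell markers gave 12.55, 12.35 and 14.11 in the p80HT mice, against 11.31, 11.71 and 11.51 in WT mice. Salivary and lacrimal gland markers (Pip, Amy1 and others) gave 10.05, 10.25 and 14.87 in the p80HT mice, against 10.07, 9.94 and 10.14 in WT mice. Hence calls and class medians are given with all 6 arrays and without p80HT mouse 3. Differences of single genes are with all 6 arrays unless the text says otherwise. The part of other cells in the histone signals was not tested, and in bulk samples fewer cells of a type and less RNA per cell cannot be told apart.

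Among the 58 histone probesets, 1 was called lower in p80HT B cells and 0 higher, a call being a change of 1.5-fold or more whose limma p, before adjustment, was under 0.01. Over all probesets, the same rule called 2.04%, with 1.14% higher and 0.894% lower in p80HT. An ordinary analysis of variance gave the same counts for the histones, 1 lower and 0 higher. No histone probeset passed a Benjamini-Hochberg adjusted p of 0.05, which 0.0173% of all probesets did. At an unadjusted p under 0.05, 1 histone probeset was higher and 6 were lower, with 4.19% of all probesets higher and 5.64% lower. Without p80HT mouse 3, 3 histone probesets were called lower and 0 higher, against 1.47% and 1.87% of all probesets (3.34% in both directions). In that comparison 2 of the 3 also passed an adjusted p of 0.05, which 1.26% of all probesets did in the lower direction and 3.13% in either. The median log2 difference of the 58, p80HT minus WT, was 0.077 with all arrays and -0.015 without p80HT mouse 3, beside -0.028 and 0.028 for all probesets.

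The gene that fell was Hist3h2a (H2aw, probeset 10376455), a core histone gene of the small Hist3 cluster. Its log2 signal was 9.31, 9.35 and 8.74 in p80HT mice 1, 2 and 3, against 10.58, 10.23 and 10.39 in WT mice. All p80HT arrays lay below all WT arrays, and p80HT mice 1 and 2 were already more than 1 log2 unit below the WT mean of 10.40. The mean was 9.13 ± 0.34 in p80HT mice and 10.40 ± 0.18 in WT mice (SD, n = 3 each), a log2 difference of -1.26 (SE 0.20, limma adjusted p = 0.124), or 2.40-fold lower. Without p80HT mouse 3 the difference was -1.07 with an adjusted p of 0.00449. A further probeset shared by Hist3h2a and Trim17 (10376446) did not show a difference of this size. It read 7.56, 7.63 and 7.33 in p80HT mice, against 7.74, 7.56 and 7.75 in WT mice, and its difference was -0.18 (SE 0.13, adjusted p = 0.728).

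The next genes of the Hist3 cluster are named as H2B genes, though the current symbol of Hist3h2bb has the ending used for pseudogenes. Hist3h2bb (H2bu1-ps), which lies beside Hist3h2a in the gene order, had log2 signals of 8.59, 8.46 and 8.60 in p80HT mice, against 8.91, 8.79 and 8.84 in WT mice. The groups did not overlap, yet the difference of -0.30 (SE 0.11, adjusted p = 0.466) was under 1.5-fold. Hist3h2ba (H2bu2) read 7.39, 7.29 and 7.37 in p80HT mice, against 7.46, 7.40 and 7.33 in WT mice, and there the groups overlapped.

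**Figure D1:**
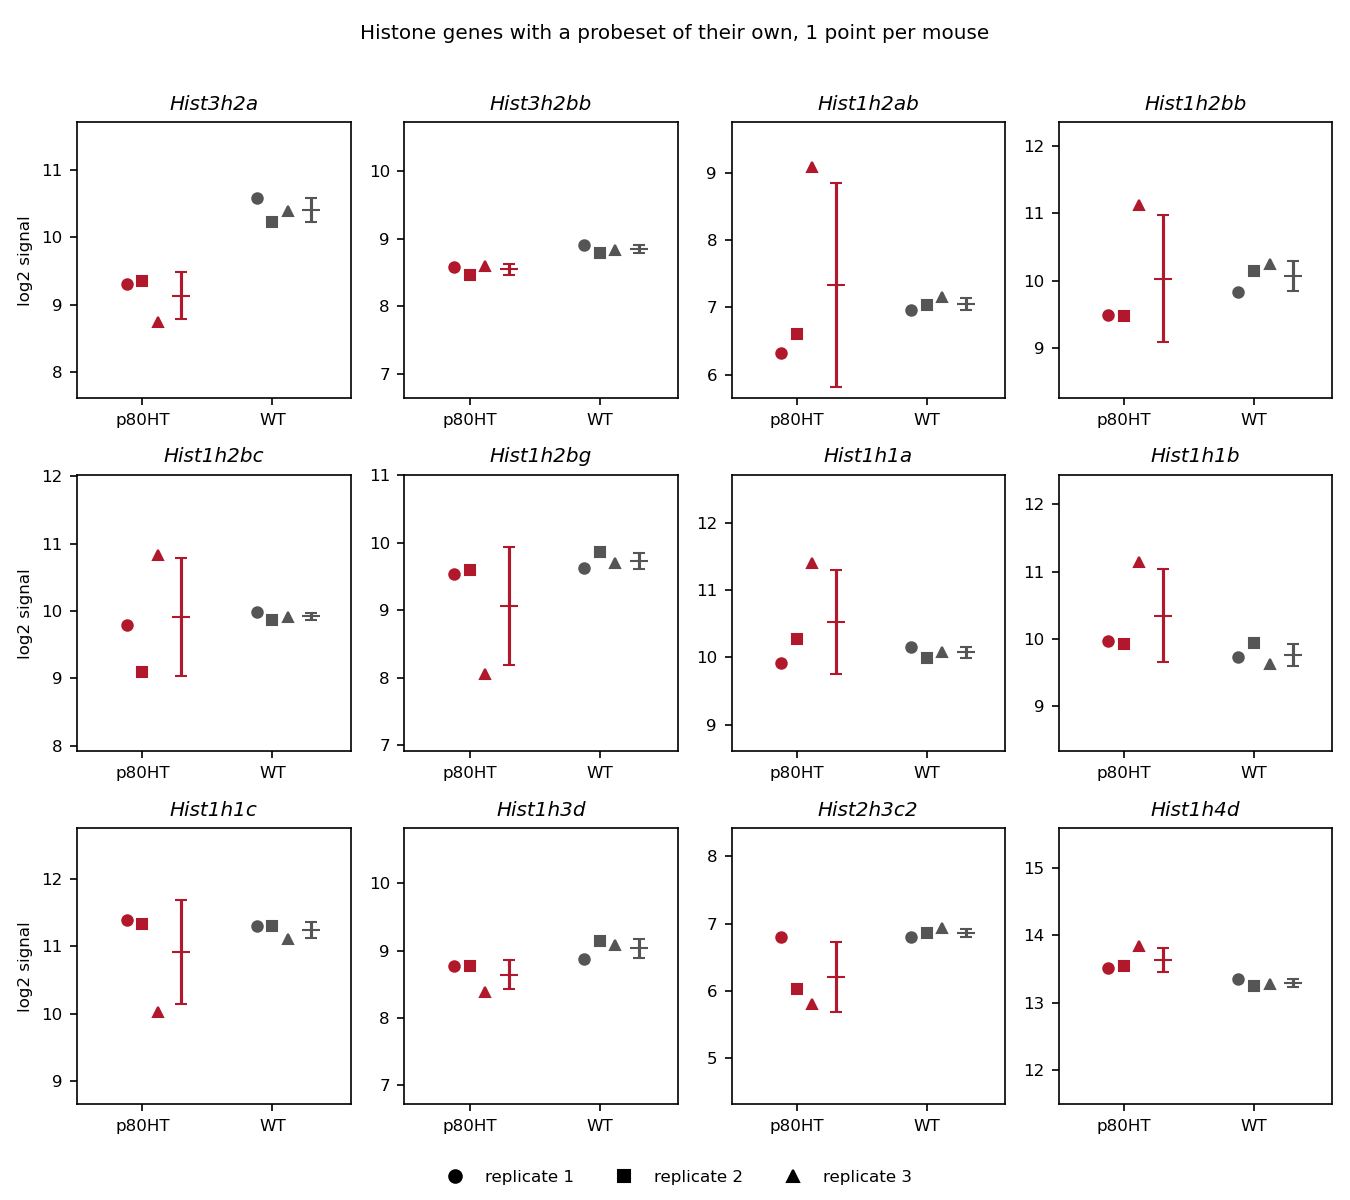
Log2 signals of 12 histone genes that have a probeset of their own, with 1 point per mouse (circle, square and triangle for replicates 1, 2 and 3), p80HT in red left of WT in grey, and the mean with its SD (n = 3) beside the points. The vertical axes differ in level but span the same range. Hist3h2a was lower in all 3 p80HT mice, while p80HT mouse 3 (triangle) lay far above or far below the other 5 arrays in Hist1h2ab, Hist1h2bb, Hist1h2bg, Hist1h1a, Hist1h1b and Hist1h1c.

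Sequence upstream of the start is shown for 7 genes, because these genes carry the patterns described here: the gene that fell (Hist3h2a), the neighbours that were lower in p80HT mice 1 and 2 (Hist1h2ab, Hist1h2bb), genes with low (Hist1h2bg, Hist1h1c) or high (Hist1h1b) signal in p80HT mouse 3, and an H4 gene that was higher in each p80HT mouse (Hist1h4d). The windows are the 150 bases before the RefSeq start (GRCm38.p6), written 5′ to 3′ on the gene's strand: chr11:58954535-58954684 on the plus strand for Hist3h2a, chr13:23750938-23751087 on the plus strand for Hist1h2ab, chr13:23746584-23746733 on the plus strand for Hist1h2bb, chr13:23571250-23571399 on the plus strand for Hist1h2bg, chr13:21780626-21780775 on the minus strand for Hist1h1b, chr13:23738657-23738806 on the plus strand for Hist1h1c and chr13:23581418-23581567 on the plus strand for Hist1h4d. Capitals mark matches, on either strand, to the TATA letters TATAA, the CCAAT box CCAAT, the octamer ATTTGCAT or the H1 box AAACACA.
Hist3h2a: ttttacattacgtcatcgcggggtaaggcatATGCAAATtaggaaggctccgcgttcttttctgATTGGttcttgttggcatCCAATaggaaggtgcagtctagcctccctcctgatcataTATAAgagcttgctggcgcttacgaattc
Hist1h2ab: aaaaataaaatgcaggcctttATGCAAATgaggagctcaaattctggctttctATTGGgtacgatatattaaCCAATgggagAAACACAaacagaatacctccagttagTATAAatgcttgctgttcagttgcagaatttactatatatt
Hist1h2bb: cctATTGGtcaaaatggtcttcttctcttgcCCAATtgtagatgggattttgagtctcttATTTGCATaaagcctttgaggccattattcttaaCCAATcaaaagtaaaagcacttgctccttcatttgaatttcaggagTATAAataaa
Hist1h2bg: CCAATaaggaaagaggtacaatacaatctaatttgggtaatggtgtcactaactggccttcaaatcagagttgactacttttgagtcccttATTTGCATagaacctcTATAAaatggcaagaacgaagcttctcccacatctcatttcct
Hist1h1b: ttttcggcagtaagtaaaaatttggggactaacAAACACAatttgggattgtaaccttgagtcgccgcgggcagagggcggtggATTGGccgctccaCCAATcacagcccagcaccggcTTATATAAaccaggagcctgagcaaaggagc
Hist1h1c: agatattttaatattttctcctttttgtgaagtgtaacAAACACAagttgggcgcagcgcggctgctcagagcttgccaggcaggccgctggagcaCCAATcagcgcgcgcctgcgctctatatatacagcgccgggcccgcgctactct
Hist1h4d: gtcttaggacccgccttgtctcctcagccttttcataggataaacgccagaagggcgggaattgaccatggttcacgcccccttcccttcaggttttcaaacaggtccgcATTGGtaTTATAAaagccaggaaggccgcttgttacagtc

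The octamer letters, known from immunoglobulin and H2B promoters as the site of the factors Oct1 and Oct2, were present in Hist3h2a, Hist1h2ab, Hist1h2bb and Hist1h2bg. In p80HT mouse 3 these genes did not share a direction: Hist3h2a and Hist1h2bg were low while Hist1h2ab and Hist1h2bb were high. Without that mouse all were lower with no overlap, at -1.07, -0.59, -0.59 and -0.16 in the order named. Of all probesets, 20.5% were then lower without overlap. The genes shown were chosen by their values, so their directions are no result about the octamer. The H1 box letters were present in Hist1h1b, Hist1h1c and Hist1h2ab. In p80HT mouse 3, Hist1h1c lay below the WT values and Hist1h1b and Hist1h2ab above them. CCAAT was present in all 7 windows and TATAA in all but that of Hist1h1c. Among the 62 cluster genes with a window, CCAAT was found in 82.3%, TATAA in 53.2%, the octamer in 16.1% and the H1 box in 12.9%, compared with 24.5%, 14.2%, 0.998% and 3.53% of all 32851 promoter windows. By class, the octamer was found in 5 of 18 H2A and 5 of 16 H2B windows and in 0 of 6 H1, 10 H3 and 12 H4 windows, and the H1 box in 5 of 6 H1 windows. TATAA and CCAAT are short words that occur often, and a match is a description of the letters, not a site.

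Of the 6 H1 genes, 5 had a probeset of their own and none of these was called (limma). Hist1h1e was measured on a probeset shared with the H2B gene Hist1h2be (10408212), which read 9.75, 9.63 and 9.18 in p80HT mice, against 9.66, 9.77 and 9.81 in WT mice. Only p80HT mouse 3 was low there, and the difference was -0.22 (SE 0.17, adjusted p = 0.735), and -0.055 without that mouse. Hist1h1b (H1f5) read 9.96, 9.93 and 11.14 in p80HT mice, against 9.73, 9.94 and 9.63 in WT mice, a difference of 0.58 (SE 0.33, adjusted p = 0.619). Hist1h1a (H1f1) read 9.92, 10.28 and 11.39 in p80HT mice, against 10.15, 9.997 and 10.07 in WT mice (0.46, SE 0.35, adjusted p = 0.746). In both, p80HT mouse 3 alone was high, and without it the differences were 0.18 and 0.024. Hist1h1c (H1f2), the linker histone that is also made outside S phase, went the other way in that mouse. It read 11.39, 11.33 and 10.03 in p80HT mice, against 11.31, 11.31 and 11.10 in WT mice, so that p80HT mice 1 and 2 lay just above WT. The difference was -0.32 with all arrays and 0.12 without mouse 3. Hist1h1d (H1f3) differed by -0.055 and the testis gene Hist1h1t (H1f6) by 0.23, both with overlapping groups. The class median was 0.23, and 0.12 without p80HT mouse 3.

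The H2A class held 6 probesets, 5 of them with 1 symbol, and Hist3h2a was the only one called. Hist1h2ab (H2ac4) split the p80HT mice: its log2 signal was 6.32, 6.60 and 9.08 in p80HT mice 1, 2 and 3, against 6.97, 7.04 and 7.15 in WT mice. Mice 1 and 2 lay below every WT mouse, and mouse 3 lay 1.93 above the highest other array. With all arrays the difference was 0.28 (SE 0.68, adjusted p = 0.974). Without p80HT mouse 3 it was -0.59 (SE 0.12, adjusted p = 0.0415), a call lower at 1.51-fold. Hist1h2ak (H2ac15), Hist1h2ae (H2ac8) and the testis gene Hist1h2aa (H2ac1) differed by 0.045, -0.037 and -0.012, with overlapping groups. The class median was -0.024, and -0.14 without p80HT mouse 3.

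Another 2 bright probesets carried 17 H2A symbols each, with Hist1h3d and H2A genes outside the clusters, and stand for H2A mRNA in bulk. The brighter, 10409220, read 13.26, 13.44 and 13.53 in p80HT mice, against 13.31, 13.35 and 13.39 in WT mice. Its difference was 0.056 (SE 0.12), and that of the other, 10494386, was 0.15 (SE 0.13). On both, p80HT mouse 3 was the highest array, and without it the differences were -0.0034 and 0.041.

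The H2B class was the largest, with 18 probesets of which 11 had 1 symbol. With all arrays 0 were called (limma). At an unadjusted p under 0.05, 2 were lower and 0 higher, against 5.64% and 4.19% of all probesets. Hist1h2bb (H2bc3), which lies next to Hist1h2ab among the measured genes, split the p80HT mice in the same way. It read 9.49, 9.48 and 11.13 in p80HT mice, against 9.83, 10.15 and 10.24 in WT mice, a difference of -0.040 with all arrays and of -0.59 without p80HT mouse 3 (SE 0.14, adjusted p = 0.0643), where it was called lower. Hist1h2bc (H2bc4) read 9.80, 9.10 and 10.84 in p80HT mice, against 9.98, 9.87 and 9.91 in WT mice, with mouse 2 low and mouse 3 high.

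Hist1h2bg (H2bc8) and Hist1h2bp (H2bc22) were low in p80HT mouse 3 instead. Hist1h2bg read 9.54, 9.59 and 8.05 in p80HT mice, against 9.63, 9.86 and 9.70 in WT mice (-0.67, SE 0.40, adjusted p = 0.646), and without mouse 3 the difference was -0.16. Hist1h2bp read 7.03, 7.30 and 6.23 in p80HT mice, against 7.20, 7.41 and 7.11 in WT mice (-0.38, SE 0.27, adjusted p = 0.712), and without mouse 3 the difference was -0.072. Hist2h2be (H2bc21), from the Hist2 cluster, read 7.57, 7.50 and 7.27 in p80HT mice, against 7.77, 7.78 and 7.76 in WT mice. Its groups did not overlap, at a difference of -0.33 (SE 0.12, adjusted p = 0.467). Hist2h2bb (H2bc18) was lower in p80HT mice 1 and 2 than in every WT mouse, with 9.06, 9.22 and 9.85 in p80HT mice, against 9.34, 9.62 and 9.60 in WT mice. Hist1h2bm, Hist1h2bh and the testis gene Hist1h2ba differed by 0.16, 0.16 and 0.072, with overlapping groups.

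Of the 7 H2B probesets with 14 or 15 symbols, the 4 above a log2 mean of 12 differed by 0.034 to 0.099, and by -0.088 to -0.017 without p80HT mouse 3. A pair of probesets with identical values on every array (10403959 and 10408087) differed by -0.69 (SE 0.31, adjusted p = 0.523), with 8.48, 7.79 and 7.60 in p80HT mice, against 8.11, 8.93 and 8.92 in WT mice, so the groups overlapped. The class median was -0.039, and -0.10 without p80HT mouse 3. With all arrays 11 of the 18 H2B differences were below 0, near the 56.3% of all probesets. Without that mouse 16 of the 18 were below 0, compared with 45.0% of all probesets. The 7 with 14 or 15 symbols are not independent of each other, and 6 of them were among these 16.

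The H3 class gave different values by the kind of probeset. With all arrays, the 3 genes with a probeset of their own were all lower in p80HT B cells at an unadjusted limma p under 0.05. Of all probesets, 5.64% were lower at that p. None of the 3 was called. Without p80HT mouse 3 only Hist1h3f kept an unadjusted p under 0.05, and 11.0% of all probesets were then lower at that p. Hist2h3c2 (H3c15) read 6.80, 6.03 and 5.81 in p80HT mice, against 6.80, 6.86 and 6.93 in WT mice, a difference of -0.65 (SE 0.25, adjusted p = 0.472), and of -0.45 without mouse 3. Hist1h3d (H3c4) read 8.77, 8.77 and 8.39 in p80HT mice, against 8.87, 9.14 and 9.08 in WT mice (-0.39, SE 0.16, adjusted p = 0.489, and -0.26 without mouse 3). In both genes all p80HT values lay below all WT values, by a narrow margin for p80HT mouse 1 in Hist2h3c2. Hist1h3f (H3c7), a dim probeset, read 5.38, 4.94 and 5.04 in p80HT mice, against 5.31, 5.82 and 5.70 in WT mice. Hist2h3c2 was dim as well: its mean over the 6 arrays was 6.54, under the 25th percentile of all probesets (6.59).

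The other 10 H3 probesets carried the same 12 symbols, which include these 3 genes, and are not independent of each other. Of these, 8 were bright, at 13.65 to 13.87 in p80HT mice 1 and 2 and 14.12 to 14.21 in p80HT mouse 3, against 13.64 to 13.79 in WT mice. Their differences ran between 0.17 and 0.20, and p80HT mouse 3 was the highest array in all 8. Without that mouse the median difference of the 8 was 0.048. Probeset 10494402, with the same symbols, was an exception: it read 10.62, 10.71 and 11.17 in p80HT mice, against 10.98, 11.22 and 11.40 in WT mice, a difference of -0.37 with all arrays and -0.54 without p80HT mouse 3 (adjusted p = 0.0805, 1.45-fold). The last of the 10, probeset 10408246, differed by 0.14 with overlapping groups. The class median was 0.18 over all 13 probesets, and 0.043 without p80HT mouse 3. Over the 3 with 1 symbol it was -0.49, and -0.45 without that mouse.

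In the H4 class most probesets read above WT with all arrays. Of its 13 probesets, 11 had a positive difference, against 43.7% of all probesets, and in 6 all p80HT values lay above all WT values, against 8.19% of all probesets. Without p80HT mouse 3, 9 of the 13 H4 differences were positive, as were 9 of the 13 H3 differences, against 55.0% of all probesets. The 6 without overlap included a pair with identical values (10403957 and 10408092). Of the 6, Hist1h4d and Hist2h4 had 1 symbol, and the others carried the same 11 H4 symbols, Hist1h4d among them. Such probesets are not independent of each other, here or in the count of positive differences. None of the 13 was called, and the sizes were small. Hist1h4d (H4c4) read 13.51, 13.55 and 13.84 in p80HT mice, against 13.35, 13.24 and 13.28 in WT mice. Its difference was 0.34 (SE 0.13, adjusted p = 0.474), and it was the only histone probeset higher at an unadjusted p under 0.05. Without p80HT mouse 3 it was 0.24.

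Hist2h4 (H4c14) read 11.50, 11.53 and 12.03 in p80HT mice, against 11.39, 11.49 and 11.48 in WT mice, so the groups did not overlap, but p80HT mice 1 and 2 lay close to WT. Probeset 10408074, with 11 H4 symbols, was 1 of 3 H4 probesets in which p80HT mouse 3 was not the highest array: it read 11.58, 11.58 and 11.46 in p80HT mice, against 11.39, 11.20 and 11.32 in WT mice (0.24, SE 0.12, adjusted p = 0.565). Hist1h4f (H4c6) read 10.01, 10.19 and 11.29 in p80HT mice, against 10.03, 10.37 and 10.14 in WT mice, and only mouse 3 was high. Hist1h4i (H4c9) was lower, with 9.04, 8.95 and 9.11 in p80HT mice, against 9.11, 9.41 and 9.18 in WT mice (-0.20, SE 0.13). Hist1h4c, Hist1h4h and Hist4h4 differed by 0.27, 0.20 and 0.22, each with overlapping groups and with p80HT mouse 3 as the highest array. The class median was 0.23, and 0.078 without p80HT mouse 3.

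**Figure D2:**
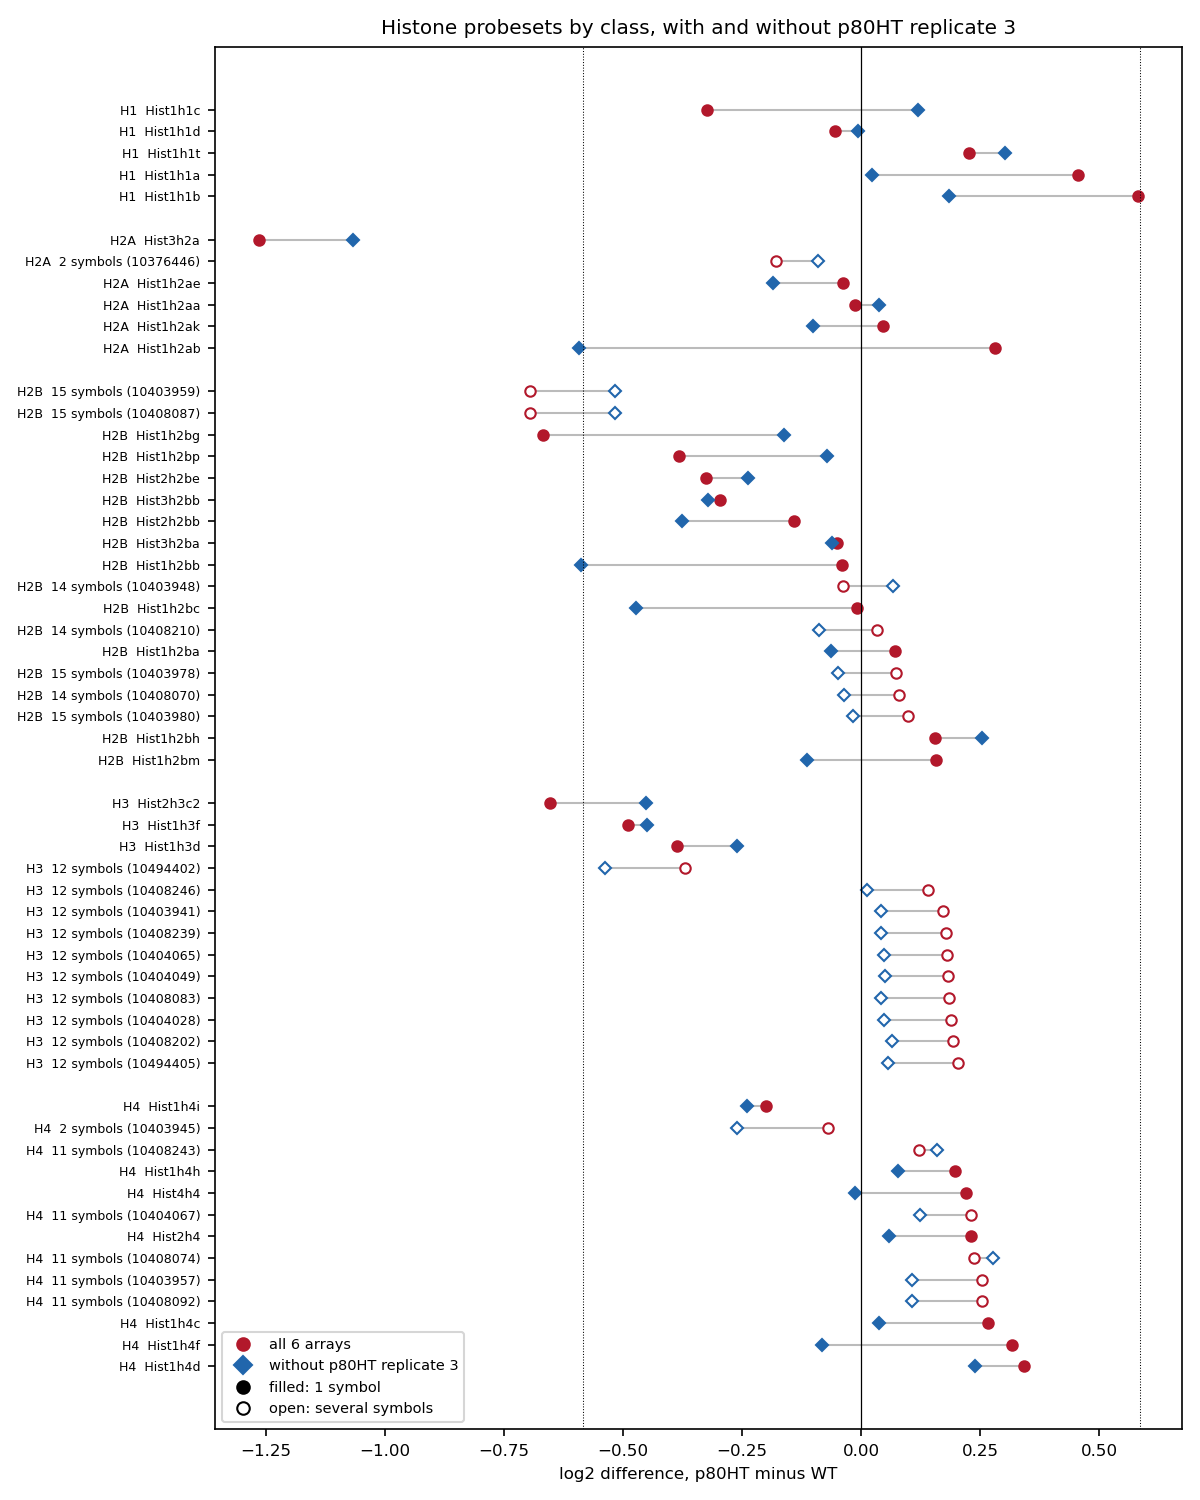
Log2 difference of p80HT minus WT for each probeset of the classes H1, H2A, H2B, H3 and H4, with all 6 arrays (red circles) and without p80HT replicate 3 (blue diamonds). Filled markers are probesets with 1 symbol, open markers probesets with several symbols, and dotted lines mark 1.5-fold. Hist3h2a stays beyond 1.5-fold in both, at -1.26 and -1.07, and most H3 and H4 markers lie nearer 0 without p80HT replicate 3.

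By share, p80HT mouse 3 was more often the highest array, and less often the lowest, among histone probesets than over all probesets. It was the highest of the 6 arrays in 35 of the 58 probesets, against 26.8% of all probesets, and the lowest in 12, against 47.8%. Of the 35, 19 carried several symbols, and many of these share their symbols and are not independent. Among the 31 with 1 symbol it was the highest in 16 and the lowest in 8. In p80HT mouse 3, 5 histone probesets lay at least 1 log2 unit above the WT mean, against 6.89% of all probesets on this array. At least as far below lay 7, against 3.07%. On the arrays of p80HT mice 1 and 2, Hist3h2a was the only histone that far from the WT mean. The 5 above were Hist1h2ab (2.03), Hist1h1b (1.38), Hist1h1a (1.32), Hist1h4f (1.11) and Hist1h2bb (1.05). Below were Hist1h2bg (-1.68), Hist3h2a (-1.66), Hist1h1c (-1.21), Hist2h3c2 (-1.06), Hist1h2bp (-1.01) and the identical H2B pair.

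Without that mouse, the groups did not overlap in 8 histone probesets that were higher in p80HT, 7 of them H4, and in 13 that were lower. Of the 7 H4 probesets, 5 carried the same 11 symbols and are not independent of each other. Of all probesets, 18.6% were then higher and 20.5% lower without overlap. With all 6 arrays, 6 histone probesets were higher and 7 lower without overlap, against 8.19% and 11.6% of all probesets.

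Along the Hist1 cluster, 23 genes had a probeset of their own. Neighbours in the gene order did not all share a direction in p80HT mouse 3. Hist1h1c was low and its neighbours Hist1h4c, Hist1h2bb, Hist1h2ab and Hist1h1a were high or above WT. Of these neighbours, Hist1h2bb and Hist1h2ab were high in mouse 3 but low in mice 1 and 2.

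**Figure D3:**
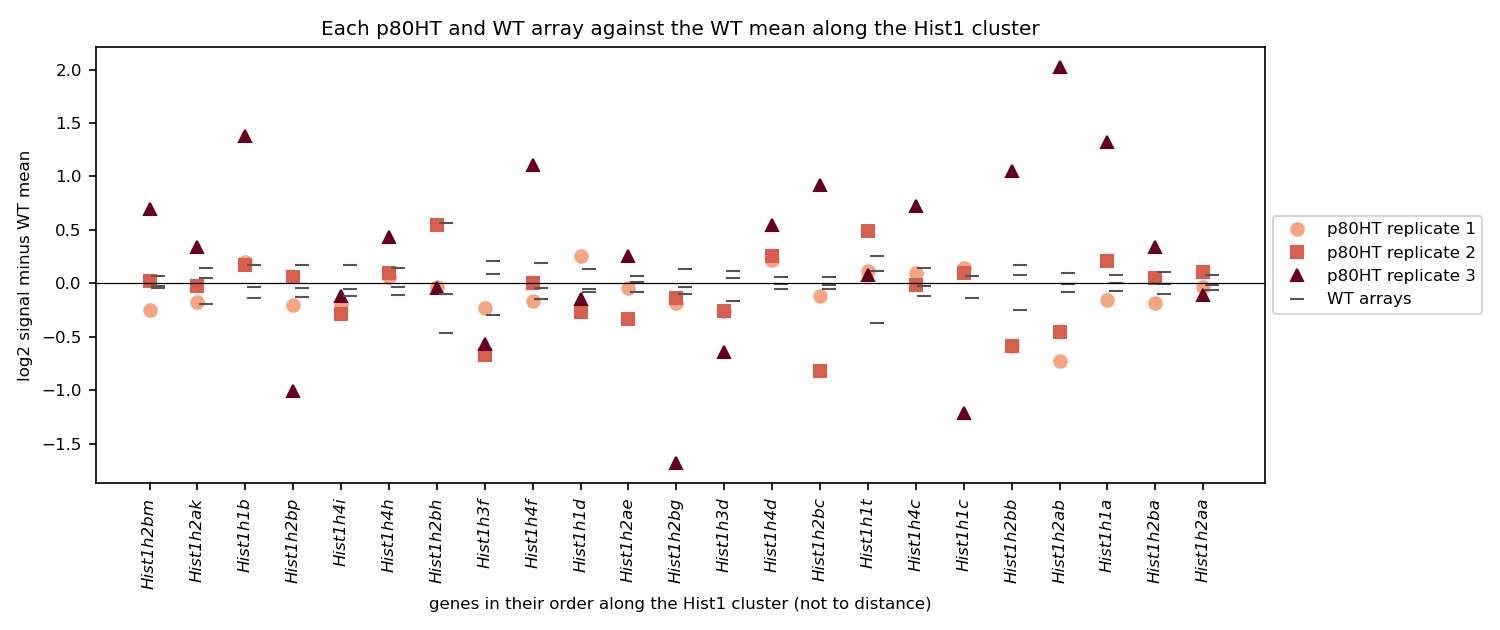
Log2 signal of each p80HT array (circles, squares and triangles for replicates 1, 2 and 3) and each WT array (grey dashes) minus the WT mean, for the 23 Hist1 genes with a probeset of their own, in gene order and not to distance. p80HT replicate 3 ranges between 2.03 in Hist1h2ab and -1.68 in Hist1h2bg, while replicates 1 and 2 are lowest together in Hist1h2bb and Hist1h2ab.

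The probesets with several symbols, which sum over near-identical genes and cannot be assigned to 1 of them, differed in level and direction from those with 1 symbol. The median difference was 0.14 over the 27 with several symbols and -0.012 over the 31 with 1 symbol (0.043 and -0.081 without p80HT mouse 3). With all arrays, p80HT lay below WT without overlap in 7 of the 31 with 1 symbol and 0 of the 27. Of all probesets, 11.6% did so. The p80HT values lay above WT without overlap in 2 of the 31 and 4 of the 27, against 8.19% of all probesets. These 4 carried the same 11 H4 symbols and are not independent of each other. How the array's probes divide signal between copies was not tested.

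Genes that are used with histones were taken from lists. Of 28 cell cycle genes measured of 30 listed, 1 was called higher and 0 lower with all arrays, against 1.14% and 0.894% of all probesets. Ccne1, the cyclin that starts S phase and drives histone transcription through Npat, read 9.33, 9.36 and 9.84 in p80HT mice, against 8.85, 8.86 and 8.89 in WT mice (0.64, adjusted p = 0.316). It lost the call without p80HT mouse 3, where its difference was 0.47. There 0 genes of the list were called higher, against 1.87% of all probesets. The list's median log2 signal was 9.17, 9.28 and 10.31 in p80HT mice, against 9.15, 9.24 and 9.05 in WT mice. By this median only p80HT mouse 3 was high, and it was the highest array in 26 of the 28 genes. The groups did not overlap in 4 genes that were higher and 1 that was lower, against 8.19% and 11.6% of all probesets. Rrm2, 1 of the 4, read 9.68, 9.89 and 10.57 in p80HT mice, against 9.39, 9.28 and 9.07 in WT mice (0.80, limma adjusted p = 0.373, and 0.54 without mouse 3). The list's median difference was 0.35 with all arrays and -0.036 without mouse 3. Without that mouse 8 genes of the list were lower and 4 higher without overlap, against 20.5% and 18.6% of all probesets. Pcna, the clamp of the replication fork, was the 1 gene called lower without p80HT mouse 3 (-0.69), against 1.47% of all probesets. It read 11.41, 11.34 and 12.02 in p80HT mice, against 11.97, 12.19 and 12.03 in WT mice, so mouse 3 lay at the WT level.

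Of 21 genes for histone transcription and mRNA processing measured of 22 listed, 0 were called in either direction (limma), and 3 were lower and 0 higher at an unadjusted p under 0.05, against 5.64% of all probesets lower. In the comparison without p80HT mouse 3, 10 of the 21 were lower at that p, against 11.0% of all probesets. Their median difference was -0.12, and -0.22 without p80HT mouse 3. Hinfp, which activates H4 genes, read 8.77, 8.87 and 8.85 in p80HT mice, against 9.17, 9.22 and 9.36 in WT mice (-0.42, adjusted p = 0.344), under 1.5-fold. Nfya, a subunit of the factor that binds CCAAT, read 10.29, 10.10 and 10.11 in p80HT mice, against 10.47, 10.53 and 10.47 in WT mice (-0.32, adjusted p = 0.450). Zfp473, a zinc finger protein of the processing complex, differed by -0.46 (adjusted p = 0.450). In all 3 the groups did not overlap. Slbp, which binds the stem-loop of histone mRNA, differed by -0.14 with overlapping groups.

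Of 18 histone chaperones measured of 20 listed, 0 were called higher and 1 lower, against 1.14% and 0.894% of all probesets. Ubn1, of the complex that deposits H3.3, read 9.03, 8.88 and 8.99 in p80HT mice, against 9.25, 9.82 and 9.82 in WT mice (-0.66, adjusted p = 0.346). Nasp, a chaperone of H3 and H4, was called lower as well without p80HT mouse 3 (-0.60), as were 1.47% of all probesets. Of 11 variant histones outside the clusters measured of 14 listed, 1 was called lower and 0 higher, against 0.894% and 1.14% of all probesets. The 1 was Cenpa, the H3 variant of centromeres. Cenpa read 10.16, 10.05 and 10.35 in p80HT mice, against 10.81, 10.77 and 10.88 in WT mice (-0.63, adjusted p = 0.195), and p80HT mice 1 and 2 were the lowest. H2az1, the H2A variant H2A.Z, read 11.998, 12.01 and 12.76 in p80HT mice, against 11.79, 11.86 and 11.86 in WT mice (0.42, adjusted p = 0.596), with groups that did not overlap. H2ax, the variant marked at DNA breaks, read 9.50, 9.33 and 10.62 in p80HT mice, against 9.69, 9.87 and 9.76 in WT mice, with mice 1 and 2 below WT and mouse 3 above, as in Hist1h2ab and Hist1h2bb.

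**Figure D4:**
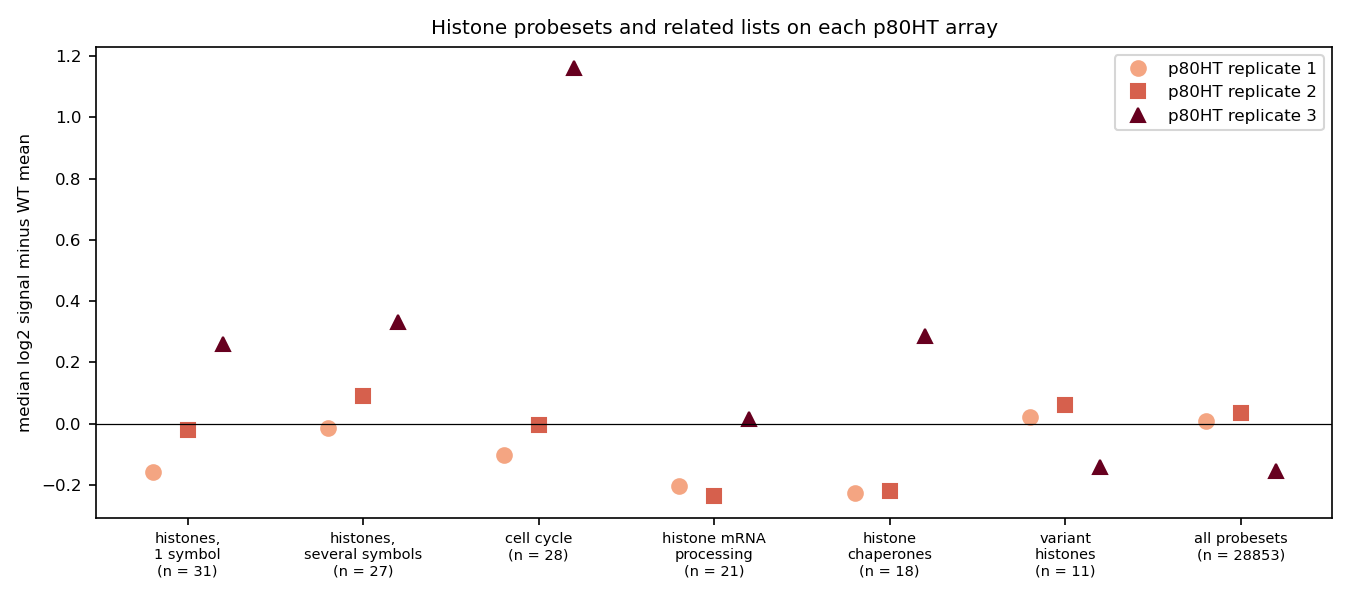
Median log2 signal of each p80HT array minus the WT mean, over histone probesets with 1 or several symbols, 4 related lists and all probesets (circles, squares and triangles for p80HT replicates 1, 2 and 3; 0 is the WT mean). Replicate 3 stands at 1.16 for the cell cycle list and at 0.26 and 0.33 for the histones with 1 and several symbols, while replicates 1 and 2 lie below 0 for the histone mRNA processing and chaperone lists.

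Beside the values of p80HT mouse 3, other marker lists moved on the same array, though not all on it alone. All 7 measured T cell and all 6 macrophage markers were higher without overlap, both with all arrays and without mouse 3. Of all probesets, 8.19% and 18.6% were so. Of the T cell markers 3 were called higher with all arrays and 6 without mouse 3, against 1.14% and 1.87% of all probesets. Of the macrophage markers 1 was called higher in each comparison. Summed macrophage markers were 12.75, 12.75 and 14.53 in p80HT mice, against 12.32, 12.18 and 12.23 in WT mice, and summed fibroblast markers 10.24, 10.39 and 13.51 in p80HT mice, against 10.38, 9.96 and 10.03 in WT mice. On p80HT mice 1 and 2, Slc4a1, a red cell membrane protein, was 9.94 and 10.26 (8.59 in mouse 3), against 7.98, 7.999 and 7.86 in WT mice, and of 7 erythroblast markers 2 were called higher with all arrays and 5 without mouse 3, against 1.14% and 1.87% of all probesets. Tfrc, on the same list, differed by -0.36, and by -0.46 without mouse 3. Myeloid precursor and neutrophil markers summed to 14.56, 14.10 and 11.14 in p80HT mice, against 12.28, 13.39 and 14.23 in WT mice, and varied widely within WT. Of these 9 markers, 0 were called with all arrays. Without mouse 3, 4 were called higher (Mpo, Elane, Prtn3 and Ctsg) and 0 lower, against 1.87% and 1.47% of all probesets. Of the 6 plasma cell markers, 1 was called higher (Prdm1, 0.80) and 0 lower with all arrays, against 1.14% and 0.894% of all probesets. Irf4 differed by -0.78 and Jchain by -0.079, and the list median was 0.16. Their part in the histone values was not tested.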

How the data were processed

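The deposited values are log2 probeset signals of 6 Affymetrix Mouse Gene 1.0 ST arrays (RNA extracted with Trizol and prepared with a whole-transcript kit), summarised by the authors in Partek by RMA; versions and settings are not given in the sources used here. No further normalization was applied. The platform table gives current symbols, of which 0 have the form Hist1h to Hist4h, so the older names were found through the Entrez gene number and the RefSeq synonyms (GRCm38.p6). Of all probesets, 21789 have 1 symbol, 1621 several and 5443 none, and those with several were kept. Among the 58 histone probesets 2 pairs have identical values, so that 56 are distinct.

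p80HT was compared with WT by limma 3.58.1 in R 4.3.3, with lmFit and eBayes, 2-sided tests and no blocking, over all 28853 probesets, with Benjamini-Hochberg adjustment over all of them. A call needed 1.5-fold or more and an unadjusted p under 0.01, as in the study's methods. Differences are log2 values, p80HT minus WT, "not overlapping" means that all values of 1 group lie above all of the other, and errors are SDs over 3 mice unless SE is written. Fits were checked on simulated data. Arrays give no depth, so the number of mice limits the precision. Levels of different probesets are described (bright or dim) but were not tested against each other. The labels give separate animals, and the replicate numbers are not stated to pair them.

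Members were to be named when called with all arrays or without p80HT mouse 3, or when among the 3 brightest and the 2 largest differences each way of a class, with the testis histones and Hist3h2a; from other lists, the called genes and up to 4 more by p. Others were described after their values were seen. The members and lists were chosen with earlier results of these data known. Promoter windows came from RefSeq tables, which hold 26 of the 31 genes with a probeset of their own; the genes not matched were Hist3h2bb, Hist1h3f, Hist1h2bc, Hist2h2be and Hist2h4. Alternatives were leaving out each array, a replicate block, ordinary analysis of variance, an intensity trend, quantile normalization, median centring, a filter on dim probesets, probesets with 1 symbol and other thresholds. Python 3.11.15 with pandas 2.3.3 and matplotlib 3.10.9 was used for summaries and figures.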

Additional observations from a re-analysis of the deposited data

How the results depend on the processing

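Hist3h2a kept its call in every alternative run except the adjusted p under 0.05, which left 0 histone probesets lower. Its difference was -1.37 to -1.07 when single arrays were left out. No histone probeset was called higher under any alternative. Leaving out arrays in turn gave 1 to 3 histone probesets lower and, over all probesets, 291 to 965 called (198 to 540 higher, 93 to 425 lower). The highest counts came without p80HT mouse 3, and without WT mouse 2 or WT mouse 3 the counts were 291 and 310. The H1 median was 0.041 to 0.35. Ordinary analysis of variance called 268 probesets (168 higher, 100 lower). An adjusted p under 0.05 called 5 (5 higher, 0 lower), and 1.5-fold with p under 0.05 called 1201 (668 higher, 533 lower). Among these, 2 histone probesets were lower, Hist3h2a and the dim Hist2h3c2. Centring each array on its median moved the median of all probesets to -0.092, against -0.028, and the calls to 266 higher and 393 lower, against 330 and 258. The H3 median was -0.49 over probesets with 1 symbol. With the replicate block 677 probesets were called (439 higher, 238 lower), and among the histones 1 lower and 0 higher. Deviations from group means of same-numbered mice correlated at 0.11, -0.27 and 0.075, and p80HT mice 2 and 3 correlated best with another number, so the numbers were not taken as pairs.

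The sign of a small difference changed for Hist1h2bb with quantile normalization (0.029), and for Hist1h2ak (-0.018) and H2B probeset 10408210 (-0.029) with centring. It also changed when single arrays were left out, over these ranges: Hist1h2ab -0.59 to 0.79, Hist1h2bb -0.59 to 0.24, Hist1h1c -0.56 to 0.12, Hist1h4f -0.081 to 0.56, Hist1h2bh -0.075 to 0.44, Hist1h2bm -0.11 to 0.36, Hist1h1d -0.21 to 0.055, Hist1h2ak -0.10 to 0.16, Hist1h2ba -0.064 to 0.20, Hist1h2aa -0.073 to 0.038, and probesets 10403945 -0.26 to 0.038, 10403980 -0.017 to 0.18, 10408070 -0.037 to 0.17 and 10408210 -0.088 to 0.13. The replicate block, ordinary analysis of variance, the intensity trend and the filters on dim probesets and on symbols leave each log2 difference unchanged. Its sign could not change there, so these runs tell only about calls. Of all comparisons of the members named by the rule with an alternative, 373 kept their direction and side of the threshold. In 24 the sign changed, and 2 kept their sign and became calls. These 2 were Hist1h2bb without p80HT mouse 3 and Hist2h3c2 without p80HT mouse 1 (-0.95), and Hist1h2ab, whose sign changed without p80HT mouse 3, was also called there. The causes were not tested.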
